A study of Homo sapiens with 8 samples.

Results

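The clustered histone genes encode the linker histones (H1) and the core histones (H2A, H2B, H3 and H4) around which DNA is wound, and most of them lie side by side in a few genomic clusters. Members were all genes whose symbol had the form H1-number, H2AC, H2BC, H3C or H4C followed by a number and whose counts summed to at least 10 over the 8 libraries. Of 73 symbols of that form in a table of 78691 genes, 55 met the minimum and 54 are described here. These were 5 H1, 16 H2A, 13 H2B, 9 H3 and 11 H4 genes. The lowest sum inside the minimum was 14 counts (H3C3) and the highest outside was 8 (H2BC14 and H3C12). Of the 18 symbols left out, 10 had 0 counts in every library. H1-7 and H1-8, which are also encoded outside the clusters, were among those 18.

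Histone mRNAs of this class are made mainly in S phase, when new DNA has to be packaged. Their transcripts usually end in a conserved stem-loop rather than in a poly(A) tail. SLBP binds the stem-loop, a machinery that includes the U7 snRNP and CASP8AP2 (FLASH) cleaves the transcript just after it, and the mRNA is degraded when replication stops. NPAT, a target of cyclin E and CDK2, switches the clusters on. Some of these genes can also give longer, polyadenylated transcripts, which appear in differentiated or non-cycling cells. The libraries were made by poly(A) selection, so that the levels given here are those of histone RNA that survived it, not of all histone mRNA.

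Gene expression was measured by paired-end RNA-seq in 2 human prostate cancer lines, each with 2 groups of 2 libraries. C4-2B is a castration-resistant prostate adenocarcinoma line: "C4-2B control" cells carried an empty lentiviral vector and "C4-2B MYCL" cells a lentiviral vector with human MYCL under the EF1A promoter, co-expressing EGFP. NCI-H660 is a neuroendocrine prostate cancer line: "NCI-H660 shMYCL" cells received an shRNA vector against MYCL, described as adenoviral in the series' design while the labels speak of a stable knockdown, and "NCI-H660 shCtrl" cells a non-targeting control. MYCL (L-MYC) is a transcription factor of the MYC family, and the comparisons ask what follows when it is raised in an adenocarcinoma line and lowered in a neuroendocrine line. Line, vector type and handling cannot be told apart in the comparison between lines. The labels call only the C4-2B control libraries biological replicates and the others replicates, and do not say whether they came from separate cultures, so that p-values measure the spread between these libraries only.

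Libraries held 15177071 to 32344170 counts. MYCL had 371 and 320 counts in C4-2B control, 65524 and 70253 in C4-2B MYCL, 1863 and 1602 in NCI-H660 shCtrl, and 165 and 198 in NCI-H660 shMYCL, in the direction of every label. All 6 fixed adenocarcinoma markers reached 10 counts in both libraries of each C4-2B group, and all 6 fixed neuroendocrine markers did so in each NCI-H660 group. The NCI-H660 libraries also held 2 of 4 fixed fibroblast markers, at a summed 101 to 103 CPM (counts scaled to a common library size) in shCtrl and 61.7 to 65.1 CPM in shMYCL, with the other 2 at 0. Of the markers of the other line, 2 of 6 neuroendocrine ones reached 10 counts in both libraries of each C4-2B group. In each NCI-H660 group 1 of 6 adenocarcinoma and 1 of 4 leukocyte markers did so, and in every group 1 or 2 of 3 endothelial ones. The summed level of each of these lists was at most 14.1 CPM there. The part of these markers in the results was not tested.

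Nearly all members carried the sequence that defines this class. The histone stem-loop was found within 200 bases after the stop codon in 53 of 54 members (GENCODE 44 annotation, hg38). The exception was H1-10, which carries a poly(A) signal instead and lies outside the clusters on chromosome 3. Of the 54, 39 lay in the large cluster at 6p22, 11 at 1q21, 2 at 1q42 and 2 outside (H1-10 and H4C16, the latter on chromosome 12). The sequences below show the stem-loop relative to which the annotated 3′ ends are grouped in the next paragraph. Each runs 5′ to 3′ on the gene's strand, with the 16 bases of the stem-loop in capitals. It lay at chr6:26055744-26055759 for H1-2, chr6:27146366-27146381 for H2BC12, chr6:27132321-27132336 for H2BC11, chr6:26124669-26124684 for H2AC6, chr6:27810516-27810531 for H3C10, chr6:26157095-26157110 for H1-4 and chr6:26205001-26205016 for H4C5.
H1-2: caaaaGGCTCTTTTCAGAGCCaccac
H2BC12: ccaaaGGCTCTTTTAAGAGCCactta
H2BC11: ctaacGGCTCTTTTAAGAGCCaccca
H2AC6: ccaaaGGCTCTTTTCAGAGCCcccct
H3C10: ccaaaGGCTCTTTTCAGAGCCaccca
H1-4: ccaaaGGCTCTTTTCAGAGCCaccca
H4C5: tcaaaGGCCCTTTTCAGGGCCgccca

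The 53 genes could be split by their annotated 3′ end. For 16 of them at least 1 annotated transcript ran over 100 bases past the stem-loop (H2AC6, H2AC25, H2BC4, H2BC5, H2BC6, H2BC11, H2BC15, H2BC18, H2BC21, H2BC26, H3C6, H3C10, H4C8, H4C14, H4C15 and H4C16). For the other 37, which include H1-2, H1-4, H2BC12 and H4C5, no annotated transcript ran that far.

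H1-10, a widely expressed linker histone without the stem-loop, gave 7.497% to 53.05% of the counts of these members in each library. Its TMM-normalized level was 65.7 and 69.6 CPM in C4-2B control, 66.8 and 73.1 CPM in C4-2B MYCL, 156 and 186 CPM in NCI-H660 shCtrl, and 139 and 129 CPM in NCI-H660 shMYCL. All 4 NCI-H660 libraries were above all 4 C4-2B libraries. The 10 members of highest mean CPM were H1-10, H1-2, H2BC12, H2AC6, H2BC21, H2BC5, H2BC11, H3C10, H4C8 and H2BC15. The 10 members with the most counts, which hold H2AC19 in place of H2BC15, had 80.35% of all member counts. The 54 members together took 0.0834% and 0.0735% of counts in C4-2B control, 0.0497% and 0.0529% in C4-2B MYCL, 0.0340% and 0.0427% in NCI-H660 shCtrl, and 0.0277% and 0.0255% in NCI-H660 shMYCL. Within each line both libraries with the altered MYCL level were below both controls.

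**Figure D1:**
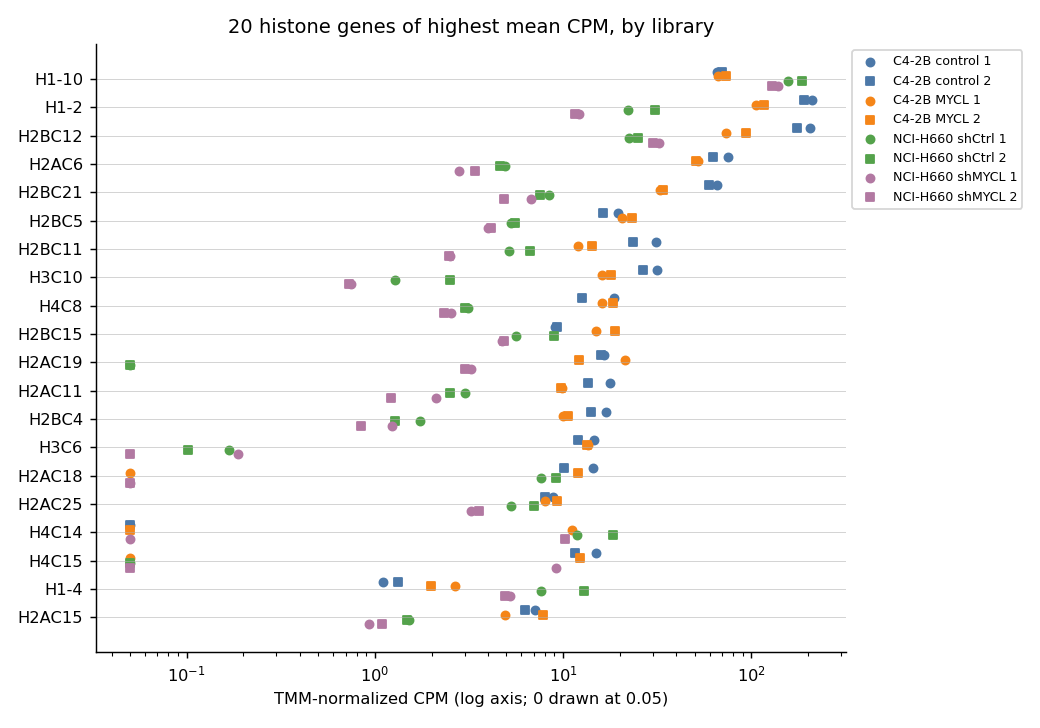
TMM-normalized CPM (log axis) of the 20 histone genes of highest mean CPM in each of the 8 libraries, with libraries at 0 drawn at 0.05. H1-10 was higher in all NCI-H660 libraries than in all C4-2B libraries, H1-2, H2BC12, H2AC6 and H2BC21 were lower in all NCI-H660 libraries than in all C4-2B libraries, and H2AC18, H2AC19, H4C14 and H4C15 were at 0 in some libraries and above 2 CPM in others.

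On the per-length scale, on which genes can be compared with each other, the order differed between lines. In C4-2B control the leading genes were H1-2, at 467 and 438 deposited TPM (counts scaled by transcript length and library size), and H2BC12, at 394 and 382 TPM. In NCI-H660 shCtrl H1-10 was at 220 and 247 TPM. H4C14, which held all reads of its pair there, was at 172 and 241 TPM, so that their ranges overlapped. There H1-2 stood at 83.8 and 109 TPM, H2BC12 at 77.5 and 83.2 TPM and H4C5 at 92.7 and 85.6 TPM, values that did not differ beyond the spread of H1-2.

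Copies of the same gene limited what could be said of some members. H2AC18 and H2AC19, H3C14 and H3C15, and H4C14 and H4C15, all at 1q21, shared at least 99.2% of their 50-base stretches with their partner. H4C14 held 0 and 0 counts in C4-2B control, 195 and 0 in C4-2B MYCL, 212 and 360 in NCI-H660 shCtrl, and 0 and 170 in NCI-H660 shMYCL. In every library its partner H4C15 held the reads where H4C14 held none. H2AC19 had 0 counts in both NCI-H660 shCtrl libraries and 52 and 50 in shMYCL, while H2AC18 had 136 and 181 in shCtrl and 0 in both shMYCL libraries. The fold changes of these 6 genes taken singly therefore describe how reads were assigned. Their single values enter the counts of members below, which are also given without them, and their levels are described by their sums. H4C11 and H4C12 shared over 92% of 50-base stretches as well, and H4C11 was at 0 outside C4-2B control replicate 2, where it held 29 counts. H2BC12 shared 47.8% of its stretches with H2BC12L, which had at most 1 count in any library. H2AC13 shared 63.5% of its stretches with H2AC14, and H2AC17 shared 67.8% with H3C12, which covers 71.0% of its exonic bases on the same strand. These genes stay in the counts given without near-identical copies.

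MYCL was first raised in C4-2B, and RNA of H1-2, of 4 H2B genes (H2BC12, H2BC21, H2BC11 and H2BC4) and of 3 further core histone genes fell, while H2BC15 rose. Of 39 members that passed the filter on low counts, 8 were lower in C4-2B MYCL (20.5%; 8.12% of all 16866 genes tested) and 1 was higher (2.56%; 11.8% of all genes). Together these were 23.1% of the members tested and 19.9% of all genes. Calls needed an adjusted p under 0.05 in the edgeR quasi-likelihood test and a log2 fold change beyond 0.5 in either direction. No gene with a near-identical copy was among these calls. The median log2 fold change was −0.47 over the members tested and 0.00 over all genes. Without C4-2B MYCL replicate 2, 13 of 45 members tested were lower and 3 higher, and without C4-2B control replicate 1, 6 of 41 were lower and 3 higher, with a median of −0.29. Over genes with at least 10 counts in every library the members' median was −0.14. The counts with a library left out have no share of all genes beside them.

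H1-2, a linker histone of the 6p22 cluster, stood at 209 and 191 CPM in C4-2B control and 106 and 117 CPM in C4-2B MYCL. It fell by 0.84 ± 0.08 on the log2 scale (SE; edgeR adjusted p = 1.6e-04). H2BC12, the leading core histone gene, went from 204 and 175 CPM to 73.8 and 94.1 CPM, a log2 fold change of −1.17 ± 0.12 (edgeR adjusted p = 1.9e-04). The groups did not overlap for either gene.

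H2BC11 and H2BC21, further H2B genes at 6p22 and 1q21, had lower values in both MYCL libraries. H2BC11 went from 31.1 and 23.5 CPM to 11.96 and 14.3 CPM (log2 fold change −1.06 ± 0.15, edgeR adjusted p = 0.0011). H2BC21 went from 66.1 and 59.6 CPM to 32.8 and 33.9 CPM (log2 fold change −0.91 ± 0.09, edgeR adjusted p = 1.6e-04). H2BC4, which shares a bidirectional promoter with H2AC6, fell from 16.9 and 14.1 CPM to 10.0 and 10.6 CPM (log2 fold change −0.59, edgeR adjusted p = 0.011, not called without C4-2B control replicate 1).

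Among the other core histones, H3C10 fell from 31.6 and 26.6 CPM to 16.1 and 17.9 CPM (log2 fold change −0.77 ± 0.12, edgeR adjusted p = 0.0014). H2AC11 fell from 17.8 and 13.5 CPM to 9.86 and 9.78 CPM (log2 fold change −0.67, edgeR adjusted p = 0.0099, not called without C4-2B control replicate 1). For H3C1 the libraries held 41 and 24 counts without and 8 and 6 counts with added MYCL, a log2 fold change of −1.54 ± 0.49 (edgeR adjusted p = 0.038) that was not called when any 1 library was left out. H2AC6 was at 74.9 and 62.7 CPM against 51.8 and 50.8 CPM, with a log2 fold change of −0.42 under the fold minimum (edgeR adjusted p = 0.010).

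H2BC15 was the only member called higher. It stood at 9.04 and 9.28 CPM in control and 14.9 and 18.96 CPM in MYCL, a log2 fold change of 0.89 ± 0.15 (edgeR adjusted p = 0.0020). H2BC5, another of the leading H2B genes, was at 19.5 and 16.3 CPM against 20.6 and 23.1 CPM, with a log2 fold change of 0.29 that was not called (edgeR adjusted p = 0.097). H1-4 was at 1.11 and 1.33 CPM against 2.68 and 1.99 CPM (log2 fold change 0.95, not called, edgeR adjusted p = 0.072). H1-10, without a stem-loop, had a log2 fold change of 0.05 ± 0.08 that was not called (edgeR adjusted p = 0.64).

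Family sums follow their leading genes. Clustered H1 genes (H1-10 left out), of which H1-2 gave 199.9 of the CPM in C4-2B control, summed to 202 ± 13.8 CPM in C4-2B control and 114 ± 7.72 CPM in C4-2B MYCL (SD, n = 2), a log2 ratio of −0.83. H2B genes summed to 330.3 ± 36.0 CPM and 187 ± 21.7 CPM (log2 ratio −0.82). The log2 ratio was −0.39 for H2A and −0.39 for H3, without overlap between the groups. H4 genes summed to 34.1 ± 6.84 CPM and 33.2 ± 1.88 CPM, and their groups overlapped.

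**Figure D2:**
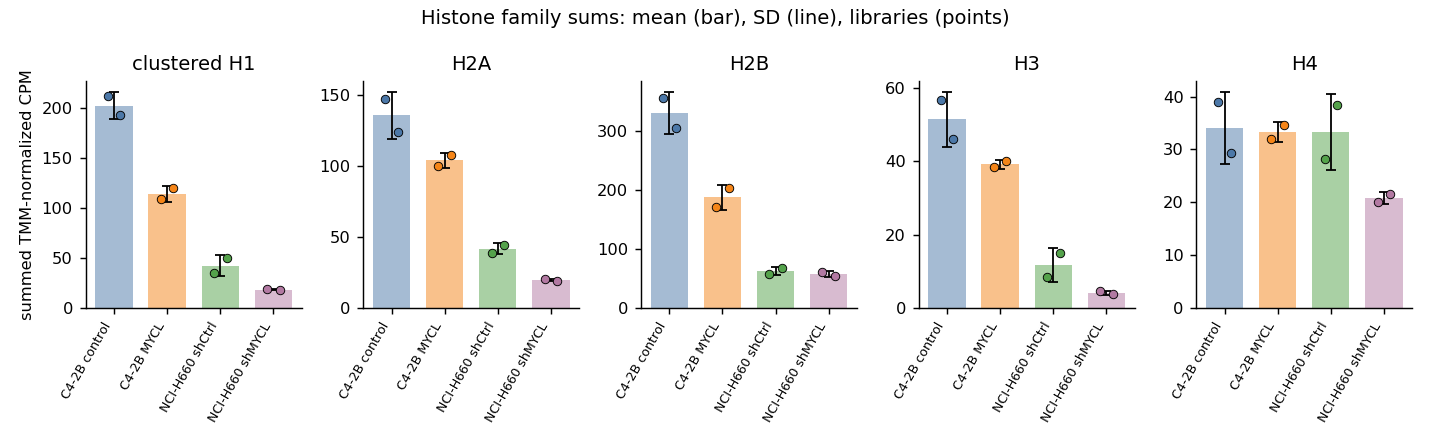
Summed TMM-normalized CPM of the clustered H1, H2A, H2B, H3 and H4 genes in the 4 groups, with the mean as a bar, the SD as a line and the 2 libraries as points (each panel has its own axis from 0). Clustered H1 and H2B sums fell from 202 and 330.3 CPM in C4-2B control to 114 and 187 CPM in C4-2B MYCL, and the H2B sums of NCI-H660 shCtrl and shMYCL overlapped.

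Genes of S phase moved with the histones in C4-2B. Of all genes tested there, 8.12% were lower and 11.8% higher, the shares to set beside the list counts that follow. Of 36 S-phase genes, 28 were lower in C4-2B MYCL, with a median log2 fold change of −0.84, among them CLSPN (−1.83), a replication checkpoint adaptor, and the replicative helicase gene MCM5 (−1.59). Of 30 genes for histone mRNA transcription and processing, 7 were lower, including CCNE2 (cyclin E2, −1.79), CASP8AP2 (−0.92), CDK2 (−0.70) and SLBP (−0.55; 115 and 114 CPM against 78.2 and 76.9 CPM). NPAT had a log2 fold change of −0.25 that was not called (edgeR adjusted p = 0.074). Of 24 histone chaperones, 8 were lower and 1 higher, with TONSL (−1.09) and CHAF1A (−0.90), a subunit of the replication-coupled chaperone CAF-1, among those lower. Among 9 tested variants made outside S phase, H2AX (−0.73) and H2AZ1 (−0.60) were lower and MACROH2A2 (0.72) was higher. The part of cell cycle stage in the histone result was not tested, and in bulk RNA fewer cells in S phase and less histone RNA per cell cannot be told apart.

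MYCL was then lowered in NCI-H660, and most members had lower values, though H2BC12 did not. Of 41 members tested, 14 were lower in NCI-H660 shMYCL (34.1%; 8.99% of all 16980 genes tested) and 1 higher (2.44%; 7.18% of all genes). These calls, 36.6% of the members tested against 16.2% of all genes, contain H2AC18, H2AC19 and H3C15, which have near-identical copies. Without the genes that have such copies 12 of 37 members were lower and none higher. DESeq2 called 7 of the 41 lower and 1 higher, and limma on log2(TPM + 1) without a filter called 1 lower. The shares of all genes called under these settings, or with a library left out, are not given here. The median log2 fold change was −0.99 over the members tested, and the values of 38 of the 41 were below 0. Single libraries bore on this result. Without shCtrl replicate 2, 8 of 43 members tested were lower and the median was −0.725, and without shMYCL replicate 1, 9 of 44 were lower.

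Linker histones of the 6p22 cluster fell. H1-2 went from 22.05 and 30.9 CPM in NCI-H660 shCtrl to 12.1 and 11.6 CPM in shMYCL, a log2 fold change of −1.17 ± 0.16 (edgeR adjusted p = 1.2e-04). H1-5 went from 4.70 and 5.31 CPM to 0.936 and 1.39 CPM (log2 fold change −2.10 ± 0.33, edgeR adjusted p = 3.4e-04). H1-4 went from 7.61 and 12.9 CPM to 5.24 and 4.91 CPM (log2 fold change −1.02, edgeR adjusted p = 0.0060). H1-10 was at 156 and 186 CPM against 139 and 129 CPM, a log2 fold change of −0.36 below the fold minimum (edgeR adjusted p = 0.030).

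Core histone genes called lower were mostly of low level. H2AC8 had 81 and 105 counts in shCtrl and 30 and 28 in shMYCL (log2 fold change −1.47 ± 0.30, edgeR adjusted p = 0.0022). H2BC11 had 92 and 131 counts against 40 and 41 (log2 fold change −1.25 ± 0.27, edgeR adjusted p = 0.0035), and was not called on the TPM scale. H4C5 had 128 and 143 counts against 69 and 73 (log2 fold change −0.73, edgeR adjusted p = 0.023). All 3 had groups without overlap, as had H2AC25 (94 and 137 counts against 52 and 59).

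The remaining calls rested on few reads. H2AC7 had 21 and 22 counts against 3 and 4, H2AC12 had 32 and 29 against 10 and 6, H2AC13 had 20 and 60 against 9 and 10, H3C2 had 27 and 46 against 10 and 11, and H4C3 had 24 and 48 against 9 and 13. None of these 5 was called by DESeq2, and H2AC7, H2AC13, H3C2 and H4C3 were not called without shCtrl replicate 2. Of H2AC7, 85.3% of exonic bases also belong to another annotated gene on the same strand. For the identical copies, H2AC18 and H2AC19 together went from 136 and 181 counts to 52 and 50 (log2 fold change −1.43 ± 0.23, edgeR adjusted p = 3.9e-04). H3C14 and H3C15 together changed by −1.69 and H4C14 and H4C15 together by −0.64 on the log2 scale (edgeR adjusted p = 0.0038 and 0.024).

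H2BC12, the leading core histone gene, did not follow. It stood at 22.5 and 24.9 CPM in shCtrl and 32.5 and 30.2 CPM in shMYCL, both shMYCL libraries above both controls, with a log2 fold change of 0.40 under the fold minimum (edgeR adjusted p = 0.030). The H2B family sums overlapped, at 62.2 ± 6.55 CPM and 56.9 ± 4.65 CPM (SD, n = 2). The other families did not overlap, with log2 ratios of −1.22 for clustered H1, −1.08 for H2A, −1.51 for H3 and −0.68 for H4.

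The S-phase genes did not move with the histones in NCI-H660. Of all genes tested there, 8.99% were lower and 7.18% higher, the shares to set beside the list counts that follow. Of 36, 11 were higher in shMYCL, and the median was 0.32 on the log2 scale, with CLSPN at 0.85 and MCM10, a replication initiation factor, at 0.76. Of the 30 genes for histone mRNA transcription and processing, 4 were higher, including CDK2 (0.72) and CCNE1 (cyclin E1, 0.63). SLBP was at 203 and 203 CPM against 242 and 263 CPM, a log2 fold change of 0.31 under the fold minimum (edgeR adjusted p = 0.036), and NPAT at 78.1 and 69.8 CPM against 95.6 and 93.1 CPM (0.35, edgeR adjusted p = 0.024). Of the 24 chaperones 2 were higher, CHAF1B (0.63), a CAF-1 subunit, and SUPT6H (0.51), and 1 was lower, HJURP (−0.68), which loads CENPA at centromeres. Of the 9 tested variants MACROH2A1 (0.51) was higher and CENPA (−1.08), the centromeric variant, was lower. The small counts for chaperones and variants are given as a description only.

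Some RNAs that lack a poly(A) tail were lower together with the histones in NCI-H660. Of 22 such RNAs, 7 passed the filter and 4 were lower in shMYCL, against 8.99% of all genes. They were RMRP (log2 fold change −2.00), RN7SL1 (−1.69), RN7SL2 (−1.69) and RN7SL3 (−1.55). RMRP had only 28 and 89 counts in shCtrl and 7 and 18 in shMYCL. How far the RN7SL genes share reads was not measured, so that their calls may not be separate observations. RN7SL1 and RN7SL2, the RNA of the signal recognition particle, together stood at 731 and 1775 CPM in shCtrl and 293 and 485 CPM in shMYCL. RN7SK, a regulator of transcription elongation, was at 48.8 and 91.0 CPM in shCtrl and 104 and 50.3 CPM in shMYCL, where the groups overlapped. RPPH1 and SCARNA2 were not called either. The shCtrl library that was high for RN7SL1 and RN7SL2, replicate 2, was also the higher for H1-2, H1-4, H2AC13, H3C2 and H4C3. Among the other members called lower, copies aside, it was the lower for H2AC7 (1.18 and 1.12 CPM in replicates 1 and 2) and H2AC12 (1.79 and 1.48 CPM). For the rest of those called it was the higher. It was also the lower for some members that were not called, among them H2AC6, H2AC11, H2BC8 and H2BC21. In C4-2B, where histones fell as well, the same pair was at 1713 and 1622 CPM in control and 2418 and 1817 CPM in MYCL, and 1 of 8 tested RNAs of the list, SNORD3A, was higher. The part of carry-over of RNA without a poly(A) tail in the histone result was not tested.

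**Figure D3:**
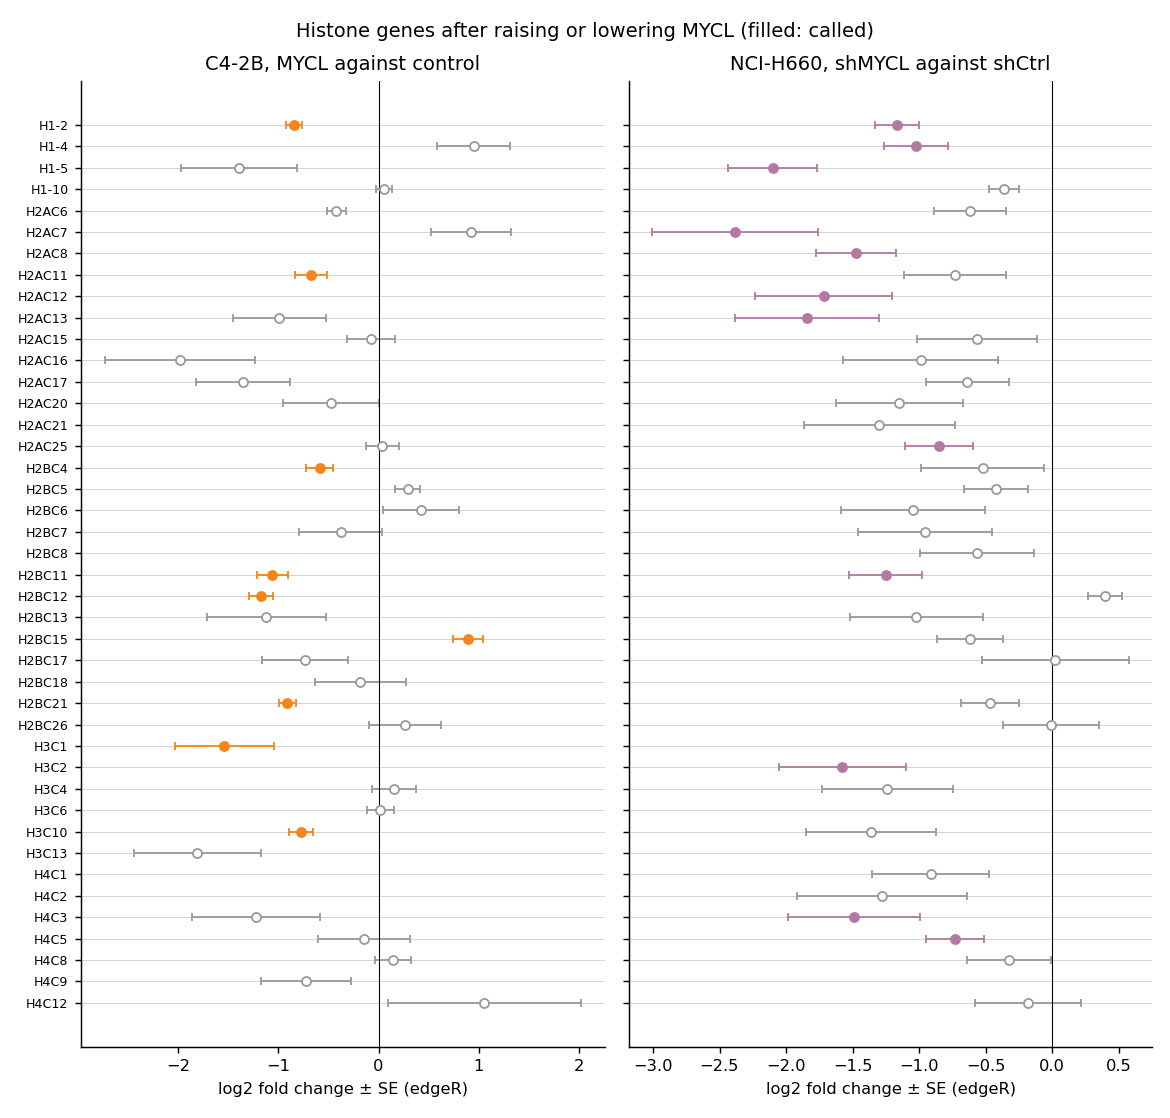
Log2 fold change ± SE (edgeR) of each tested histone gene after MYCL was raised in C4-2B (left) and lowered in NCI-H660 (right), with called genes filled and the 6 genes with identical copies left out. H1-2 and H2BC11 are filled on the left of 0 in both panels, and H2BC12 is at −1.17 in C4-2B and 0.40 in NCI-H660.

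Raising and lowering MYCL gave values below 0 in both lines for 19 of the 33 members tested in both (57.6%; 21.9% of all 14212 genes). Values above 0 in both were seen for 1 member (3.03%; 22.1% of all genes) and opposite signs for 13 (39.4%; 56% of all genes). H1-2 and H2BC11 were called lower in both, which is 25% of the members called lower in C4-2B and 14.3% of those called lower in NCI-H660 (6.06% of the 33; 0.507% of all genes). MYCL itself changed by 8.26 on the log2 scale in C4-2B and by −3.06 in NCI-H660, through different vectors. Line, vector and size of the MYCL change can therefore not be told apart where these effects are compared. The test of the difference itself compared the effect of high against low MYCL between lines. It was called (adjusted p under 0.05, edgeR) for 14 of 47 members (29.8%; 20.2% of all 19605 genes), of which 13 had the lower value in C4-2B (27.7%; 9.63% of all genes) and 1 the higher (2.13%; 10.6% of all genes). The 1 higher was H2AC19, and without the genes that have near-identical copies 12 of 42 were lower and none higher. The count that follows has no share of all genes beside it. Without NCI-H660 shMYCL replicate 2, 9 of 51 members were called.

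Clear cases were H1-2 and H2BC11. High against low MYCL differed between C4-2B and NCI-H660 by −2.01 ± 0.20 for H1-2 and −2.31 ± 0.29 for H2BC11 on the log2 scale (edgeR adjusted p = 3.4e-05 and 1.9e-04). H2BC21 (−1.38), H3C10 (−2.14), H2AC6 (−1.04) and H1-5 (−3.50) were called too. H2BC12 was called at −0.77, with both of its single effects opposed to the direction of MYCL.

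Between the control groups of the 2 lines the histone genes sorted to both sides. Of 47 members tested, 18 were lower in NCI-H660 shCtrl than in C4-2B control (38.3%; 33.3% of all 19605 genes) and 15 higher (31.9%; 36.5% of all genes), shares near those of all genes, as was the 70.2% called in either direction (69.8% of all genes). Without the genes that have near-identical copies 16 of 42 were lower and 13 higher.

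Several of the leading genes were among those high in C4-2B. H3C6 had 448 and 271 counts in C4-2B control and 3 and 2 in NCI-H660 shCtrl (log2 fold change −6.57 ± 0.41, edgeR adjusted p = 4.5e-09). H2AC6 was at 74.9 and 62.7 CPM against 4.92 and 4.60 CPM, 14.5-fold lower in NCI-H660. H3C10 was at 31.6 and 26.6 CPM against 1.29 and 2.50 CPM (15.2-fold lower), and H2BC4 at 16.9 and 14.1 CPM against 1.74 and 1.28 CPM (10.3-fold lower). H2BC12 (7.98-fold), H2BC21 (7.89-fold) and H1-2 (7.53-fold) were lower by a similar factor. By mean TPM the difference was smaller for these genes, at 6.77-fold for H2AC6, 4.35-fold for H3C10, 3.42-fold for H2BC4, 4.83-fold for H2BC12, 5.16-fold for H2BC21 and 4.69-fold for H1-2, with no overlap between the lines.

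Genes high in NCI-H660 were mostly minor ones in C4-2B. H2AC8 and its neighbour H2BC8 had 0 counts in all 4 C4-2B libraries. In NCI-H660 shCtrl H2AC8 had 81 and 105 counts and H2BC8 had 38 and 28. Against a floor of 3 counts per library they were at least 42.9-fold and 15.4-fold higher than in C4-2B control. H4C1 had 2 and 4 counts in C4-2B control and 32 and 51 in NCI-H660 shCtrl (log2 fold change 4.19 ± 0.65).

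H1-4 and H4C5 reached higher levels. H1-4 was at 1.11 and 1.33 CPM against 7.61 and 12.9 CPM (8.43-fold higher in NCI-H660), the opposite of H1-2 in the same cluster. H4C5 was at 0.910 and 0.844 CPM against 7.16 and 7.30 CPM (8.17-fold higher). H1-10 was 2.53-fold higher, at 171 ± 21.6 CPM against 67.7 ± 2.73 CPM (SD, n = 2).

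Direction is given next by annotated 3′ end. Among the 16 genes with a transcript running past the stem-loop, 15 were tested, and 10 were lower and 1 higher in NCI-H660, with a median log2 fold change of −2.34. Among the 37 with no such transcript, 31 were tested, and 8 were lower and 13 higher, with a median of 0.51. These counts hold H4C14 (higher) and H4C15 (lower) in the first class and H2AC19 (lower) and H3C15 (higher) in the second, whose reads cannot be told from those of their copies. Without the genes that have such copies 9 of 13 were lower and 0 higher in the first class (median −2.34), and 7 of 28 lower and 12 higher in the second (median 0.595). By TPM 8 of the 13 had both NCI-H660 libraries below both C4-2B libraries and 3 above, and 5 of the 28 below and 19 above. The share of all genes without overlap by TPM was not computed, so that these counts have no background beside them. Genes without an annotated transcript past the stem-loop that were lower in NCI-H660 by counts included H1-2, H2BC12, H2AC15, H2AC11, H3C4 and H4C9. For H2AC15, H2AC11, H3C4 and H4C9 the deposited files imply transcripts far longer than the annotated ones in C4-2B control (values below). For H2AC15 they do so in NCI-H660 shCtrl as well. The annotated class of these genes may therefore not hold in those libraries. The classes come from the annotation, not from these libraries, and their difference is given as a description.

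**Figure D4:**
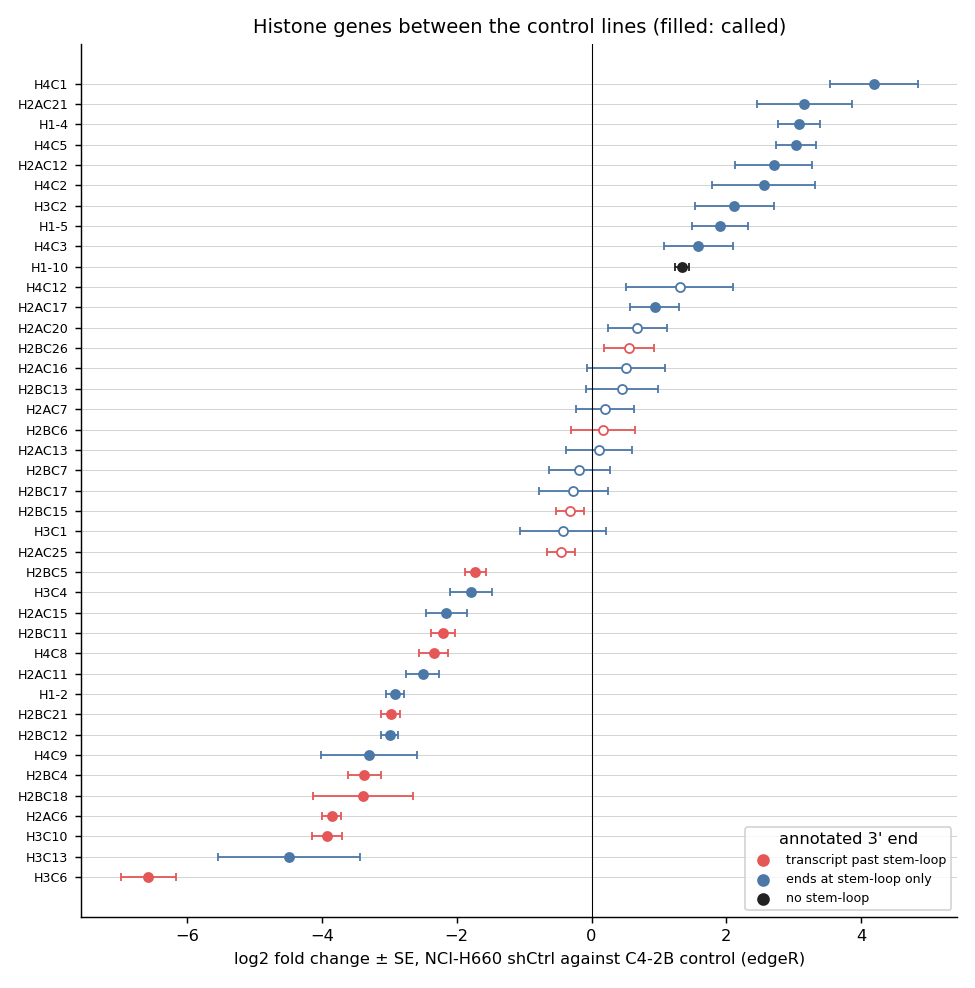
Log2 fold change ± SE (edgeR) of the tested histone genes between NCI-H660 shCtrl and C4-2B control, sorted, filled where called and coloured by annotated 3′ end, with H2AC8 and H2BC8 (0 counts in C4-2B) and the 6 genes with identical copies not drawn. Genes with a transcript past the stem-loop (red) gather on the left and the genes from H4C1 at 4.19 down to H4C3 at 1.59 are all of the class that ends at the stem-loop.

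The files also held a readout of transcript length, which does not say at which end a transcript is longer. The ratio of a gene's count to its TPM, scaled in each library on genes with 1 long transcript, gives the effective transcript length that was used for it. That length was not fixed per gene but moved between libraries. Annotated transcripts of 400 to 600 bases came out 255 to 266 bases too short on this scale. Values are therefore compared between libraries, and with annotated lengths only where they lie far above them. In C4-2B control the implied length was 1538 and 2116 bases for H2AC11 and 1934 and 2780 bases for H2AC15. It was 1984 and 1979 bases for H3C4 and 1164 and 1158 bases for H4C9. The only annotated transcripts of these genes have 493, 496, 503 and 397 bases. H2AC15 was also long in NCI-H660 shCtrl, at 2778 and 1573 bases. There H4C9 had 1 and 6 counts, too few for a value.

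Some histone genes were assigned to much longer transcripts in C4-2B than in NCI-H660. Of 23 members with at least 20 counts in each control library, 6 (26.1%) had an implied length over 1.5 times longer in both C4-2B control libraries than in both NCI-H660 shCtrl libraries (0.448% of 12275 genes). They were H2AC11, H2BC4, H2BC11, H2BC15, H3C4 and H3C10. Ratios of short transcripts are raised by the shortfall of the scale. With that shortfall restored 5 of the 23 (21.7%) passed, against 0.358% of all genes, and H2BC4 did not, at a ratio of 1.40. A shorter length in C4-2B was seen for 1.34% of all genes and for no member.

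H3C4 stood at 1984 and 1979 bases in C4-2B control and 430 and 521 bases in NCI-H660 shCtrl, a ratio of 4.17. Of its exonic bases 96.6% also belong to another annotated gene on the same strand. H2BC11 stood at 1524 and 1556 bases against 685 and 490 bases (ratio 2.62), and H2AC11, its divergent neighbour, at 1538 and 2116 bases against 894 and 461 bases (ratio 2.70). H2BC15 stood at 1614 and 1366 bases against 799 and 459 bases (ratio 2.37), H3C10 at 1047 and 946 bases against 585 and 372 bases (ratio 2.08) and H2BC4 at 420 and 389 bases against 203 and 208 bases (ratio 1.96). The groups did not overlap for any of the 6.

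No such shift was seen with MYCL. Neither the 21 members with enough counts in C4-2B nor the 18 in NCI-H660 included a gene whose implied length was over 1.5 times longer or shorter, without overlap, when MYCL was changed. Of all genes, 0.0977% were longer and 0.173% shorter in C4-2B MYCL, and 0.165% longer and 0.144% shorter in NCI-H660 shMYCL. H2BC11 kept 1700 and 1545 bases in C4-2B MYCL and 475 and 458 bases in NCI-H660 shMYCL. H1-10, H1-4, H2BC21 and H4C8, among others, had a ratio of 1.00 between the control groups.

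**Figure D5:**
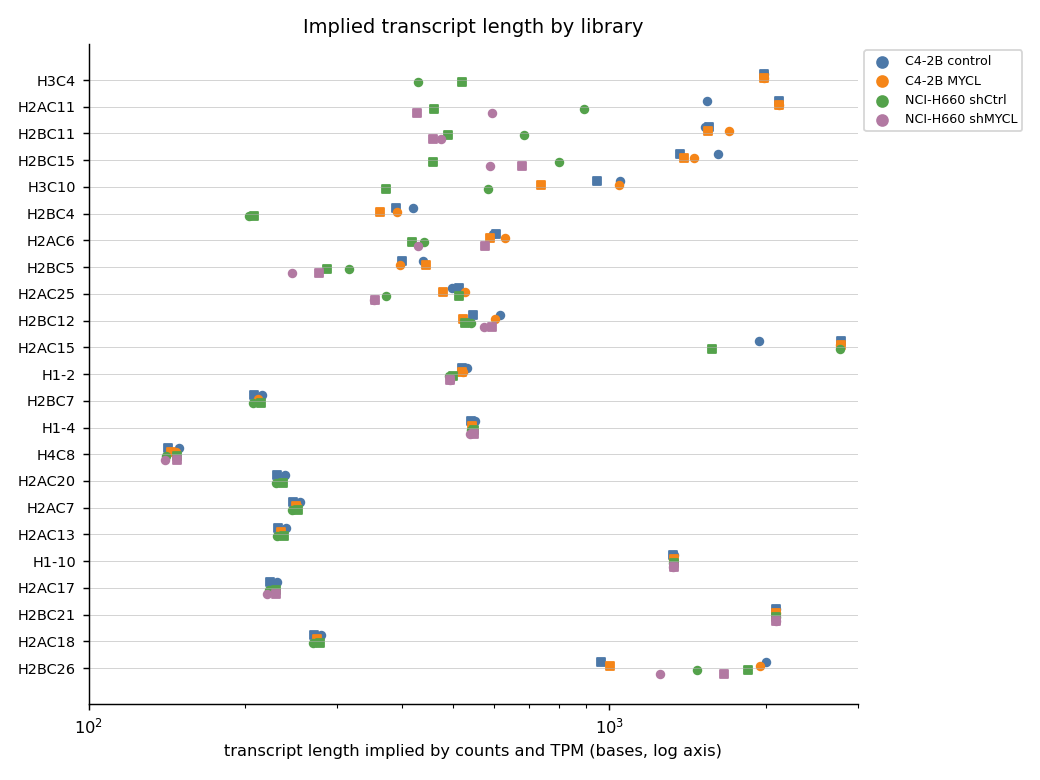
Effective transcript length in bases (log axis) implied by the deposited counts and TPM for the 23 histone genes with at least 20 counts in each control library, sorted by the ratio between lines (circles replicate 1, squares replicate 2; libraries under 20 counts not drawn). The top 6 genes, from H3C4 to H2BC4, separate C4-2B from NCI-H660 with no overlap, and H1-10 stays at 1324 to 1333 bases.

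How far the lines differed depended on the scale. Of the 16 members without copies called lower in NCI-H660 by counts, 13 were also lower by TPM with no overlap and 2, H2BC11 and H2AC11, overlapped. H3C4, called lower by counts (log2 fold change −1.78, edgeR adjusted p = 1.4e-04), was higher by TPM, at 4.004 and 2.97 TPM in C4-2B control and 6.57 and 6.23 TPM in NCI-H660 shCtrl. All 13 called higher by counts were higher by TPM as well. How many of all genes kept their direction by TPM without overlap was not computed. H2BC11 was 4.61-fold lower in NCI-H660 by counts. By TPM it stood at 24.3 and 18.1 in C4-2B control and 14.1 and 24.1 in NCI-H660 shCtrl, which overlapped, with a log2 difference of −0.18 (limma on log2(TPM + 1)). H2BC15 had a log2 fold change of −0.32 that was not called by counts (edgeR adjusted p = 0.185) and of 1.43 by TPM (limma adjusted p = 0.0090). H3 genes as a family had a log2 ratio of −2.14 by summed CPM and 0.28 by summed TPM. H2A genes had −1.71 and −0.37, H2B genes −2.41 and −1.29, clustered H1 genes −2.26 and −1.63, and H4 genes −0.03 and 0.65. On both scales the clustered H1, H2A and H2B sums had negative log2 ratios, and the sign for H3 and H4 turned with the scale.

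Many members are arranged as divergent H2A and H2B pairs that share the DNA between their start sites. There were 10 such pairs with starts 194 to 251 bases apart. H2BC4 and H2AC6 were both lower in NCI-H660 (log2 fold change −3.37 and −3.86), as were H2BC11 and H2AC11 (−2.20 and −2.51), and H2BC8 and H2AC8 were both read in NCI-H660 only. H2BC12 and H2AC12 went apart, at −2.997 and 2.70. H2BC12 had 402 and 488 counts in NCI-H660 shCtrl and 6277 and 3931 in C4-2B control, and H2AC12 had 32 and 29 against 7 and 6. H2BC21 was lower at −2.98 while H2AC20 had a value of 0.68 that was not called.

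The promoters of H2BC12, H2BC11, H2BC21 and H2BC15 are shown because the first 3 of these H2B genes fell in C4-2B MYCL and H2BC15 rose. Promoter sequence (RefSeq, GRCh38.p14) was found for 51 members, with 55 entries since some genes had more than 1 start. H2AC12, H4C1 and H4C3 had no entry. Each line below gives the 140 bases before the start site, 5′ to 3′ on the gene's strand, with motif matches on either strand in capitals. The motif searched for as the TATA box was TATAAA. The CCAAT box was searched by those letters, and the octamer known from H2B promoters as ATTTGCAT. The windows lie at chr6:27146859-27146998 for H2BC12, chr6:27132796-27132935 for H2BC11, chr1:149886683-149886822 for H2BC21 and chr6:27838429-27838568 for H2BC15.
H2BC12: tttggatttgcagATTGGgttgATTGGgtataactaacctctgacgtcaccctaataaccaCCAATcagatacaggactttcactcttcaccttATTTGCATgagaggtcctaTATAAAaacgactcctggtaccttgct
H2BC11: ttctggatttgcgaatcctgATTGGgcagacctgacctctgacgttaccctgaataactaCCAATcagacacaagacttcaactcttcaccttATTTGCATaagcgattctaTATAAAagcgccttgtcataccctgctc
H2BC21: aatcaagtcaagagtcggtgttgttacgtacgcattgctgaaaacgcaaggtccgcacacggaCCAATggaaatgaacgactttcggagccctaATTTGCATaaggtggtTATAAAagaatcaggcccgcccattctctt
H2BC15: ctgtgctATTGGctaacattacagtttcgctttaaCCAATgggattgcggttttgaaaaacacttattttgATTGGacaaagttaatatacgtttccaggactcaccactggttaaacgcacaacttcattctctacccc

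H2BC12, H2BC11 and H2BC21 held all 3 motifs in these windows and H2BC15 held CCAAT only. These genes were picked by their fold changes. Within 250 bases, 5 of the 8 members called lower in C4-2B MYCL held all 3 motifs, H3C1 and H3C10 lacked ATTTGCAT, and H1-2 held CCAAT only, as H2BC15 did. All 5 were H2A or H2B genes, while the members not called include H1, H3 and H4 genes, so that family differs between these sets. H2BC4 had its only TATAAA at −220 and H2AC11 its only ATTTGCAT at −208, in the DNA shared with the divergent neighbour. Of 29 members with an entry that were not called, 6 held all 3, among them H3C4, whose matches lay in separate entries. Within 250 bases before the start, TATAAA was found in 67.3% of the 55 member entries and 10.7% of all 35116 promoters, CCAAT in 83.6% and 32.0%, and ATTTGCAT in 38.2% and 1.63%. ATTTGCAT stood in 10 of 15 H2A and 10 of 15 H2B entries, which in part are the same DNA read from either side. It stood in 1 of 11 H3 entries, a further start of H3C4 whose window is also that of H2AC7. The E-box CACGTG, the core motif bound by MYC family proteins, was found in 6.34% of all promoters and in no member entry. A match or its absence describes these letters in this window and nothing of binding.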

How the data were processed

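RNA from 8 libraries was poly(A)-selected and sequenced as paired ends. The authors deposited estimated counts per gene (not all whole) and TPM for the first 65535 of 78691 genes. The labels name hg38 as the build. The aligner, the counter and whether counting used strand are not given in the sources used here; per the study's methods TPM were counts divided by gene length. Without strand, antisense reads cannot be separated (H1-10 and H2BC4 overlap antisense genes). The members and lists were chosen with earlier results of these data known. Counts were rounded, TMM-normalized and tested with edgeR 4.0.16 (quasi-likelihood, filterByExpr) within each line, and with all 4 groups in 1 fit for the lines and for the difference of MYCL effects. P-values were Benjamini-Hochberg adjusted over all genes tested. DESeq2 1.42.0 and limma 3.58.1 served as alternatives. Annotation was GENCODE 44, which holds 61458 of the 78691 identifiers and the 54 members described; 1 further member is not reported here. Members named were the 10 of highest mean CPM, at most 12 called per comparison by fold, at most 10 by p for the difference, and H1-10; other members, and the listed genes shown, were picked after their values were seen. The tests were checked on simulated data with 200 changed genes, of which 181, 178, 165 and 130 were recovered in the C4-2B, NCI-H660, line and difference comparisons. Floors cover counting error only.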

Additional observations from a re-analysis of the deposited data

Results flagged for a closer look

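The effect of high against low MYCL differed between C4-2B and NCI-H660 for 14 histone genes by the test of the difference itself (edgeR, adjusted p under 0.05), given here as C4-2B minus NCI-H660 on the log2 scale. Those of higher level were H1-2 (−2.01), H2BC11 (−2.31), H2BC21 (−1.38), H3C10 (−2.14), H2AC6 (−1.04), H2BC12 (−0.77) and H2AC11 (−1.40). Those of lower level were H1-5 (−3.50), H2AC13 (−2.83), H2AC16 (−2.96), H2AC17 (−1.98) and H4C3 (−2.72). H2AC18 (−11.4) and H2AC19 (8.99) are identical copies whose reads were assigned to the one or the other. Their sum differed by −1.76 ± 0.23 (edgeR adjusted p = 2.6e-04). No explanation was tested, and line, vector and size of the MYCL change cannot be told apart here.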

How the results depend on the processing

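The number of histone genes called depended on filter, scale and library. The shares of all genes called under the alternative settings are not given, so that these counts have no background beside them. In C4-2B (9 as reported) it was 16 with no filter on low counts, 18 with limma on log2(TPM + 1) or log2(TPM + 0.1), 3 with a log2 fold change minimum of 1, and 9 to 16 with 1 library left out. In NCI-H660 (15) it was 8 with DESeq2, 1 with limma on TPM without a filter (26 at an unadjusted p under 0.05), and 10 to 17 with 1 library left out. Between lines (33) it was 14 with at least 10 counts in every library, which leaves 18 members, and 30 to 37 with 1 library left out. For the difference of MYCL effects (14) it was 25 with limma on log2(TPM + 1), 9 with at least 10 counts in every library, and 9 to 16 with 1 library left out. Where an arm kept 1 library, it was assumed to vary like the other groups.

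Family sums between lines moved with the TPM scale to −1.63 (clustered H1), −0.37 (H2A), −1.29 (H2B), 0.28 (H3) and 0.65 (H4) on the log2 scale. With members of at least 10 counts in every library they moved to −2.72 (H2A), −3.94 (H3) and −0.67 (H4), to −0.77 for H3 in C4-2B and to −0.72 for H2A in NCI-H660. The cause was not tested.

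Alternatives were run for single genes only where the rule named them, and among these, signs turned for genes that were not called. In C4-2B H1-10 became −0.088 with log2(TPM + 1), with or without a filter, −0.089 with log2(TPM + 0.1) and −0.0087 without C4-2B MYCL replicate 2 (−0.0087 to 0.13 with each library left out), and H4C8 became −0.11 without C4-2B control replicate 2 (−0.11 to 0.46). Between lines H2BC15 became 1.43 with log2(TPM + 1), with or without a filter, and 1.53 with log2(TPM + 0.1), past the threshold each time (limma adjusted p = 0.0090, 0.032 and 0.011). H2BC11 between lines was not called on the TPM scale (−0.18). Of the values of single genes, 876 alternatives kept direction and side of the threshold, 66 kept the direction only and 15 passed the threshold anew.

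Replicate numbers showed no sign of a shared batch, though so few pairs cannot exclude it. Deviations of same-numbered libraries correlated at 0.013 in C4-2B and 0.020 in NCI-H660 over 2 pairs each. With a replicate block the counts were 11, 17, 33 and 15. With near-identical copies summed, an alternative chosen after seeing the data, they were 9, 15, 31 and 13. The restored length scale and the counts without near-identical copies in the text were also chosen after seeing the data.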
